A study of Rattus norvegicus with 18 samples.

Results

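The 6 genes described here encode 5 enzymes that make and desaturate fatty acids and the transcription factor that controls them, and they were read in visceral white adipose tissue (vWAT) from 18 rats. The genes were Srebf1 (ENSRNOG00000003463), Acly (ENSRNOG00000016924), Acaca (ENSRNOG00000034013), Fasn (ENSRNOG00000045636), Scd (ENSRNOG00000013552) and Fads1 (ENSRNOG00000020480). They were chosen by gene identifier and chromosome, by a rule that holds no measured value but was written with earlier results of these data known, and were 6 of the 32883 genes in the count table. The table holds no gene symbols, so the symbols are those given with the identifiers, and each symbol lies on the same chromosome in the GRCr8 reference for all 6 genes.

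RNA-seq libraries were made from 6 normotensive Wistar-Kyoto (WKY) rats, 6 spontaneously hypertensive rats on tap water (SHR-Water) and 6 spontaneously hypertensive rats given 1 g/L trimethylamine N-oxide in drinking water (SHR-TMAO). All rats were male. Per the study's methods, the SHRs were 7 to 8 weeks old when they were assigned at random to water or TMAO, treatment lasted 22 weeks, and the vWAT was taken from the abdominal cavity. Rats ate a standard diet and were kept in metabolism cages after the treatment. The serum was taken fasting, and no separate feeding state is named for the vWAT. An age was given for the SHRs and not for the WKY rats. The strain, any difference in age and every other difference between the WKY and SHR colonies cannot be told apart. TMAO is a product of dietary choline and carnitine made with the help of gut microbes. No TMAO was given to WKY rats, so its effect was compared within SHRs, and the comparison of SHR-TMAO with WKY holds strain and TMAO together.

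Adipocytes make fatty acids from citrate. Acly splits cytosolic citrate to acetyl-CoA, Acaca carboxylates acetyl-CoA to malonyl-CoA in the committed step, and Fasn builds palmitate from them. Scd puts the first double bond into saturated acyl-CoA chains to give oleate and palmitoleate, whereas Fads1 is the delta-5 desaturase of the polyunsaturated chains that lead to arachidonate. Srebf1 encodes SREBP-1, which is held in the endoplasmic reticulum and, once cut, enters the nucleus and turns on genes of this pathway. Its activity is therefore not read from its RNA level alone.

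The 6 genes were well measured. Library totals lay between 10774133 and 18874161 counts, and the count of any of the 6 genes in any library lay between 460 and 630837. All 6 passed the filter on low counts in every comparison. Levels between rats are given as TMM CPM, a gene's share of a library total (CPM) after that total was corrected by the trimmed mean of M-values (TMM). Of all counts in a library, the 6 genes together made up 0.799% ± 0.309 for WKY, 1.10% ± 0.612 for SHR-Water and 2.02% ± 1.41 for SHR-TMAO rats (SD over 6 rats). Scd made up most of this difference, with means of 3879, 6150 and 16243 TMM CPM in that order. The means were 3049, 3148 and 3843 for Fasn and 407, 510 and 448 for Srebf1, and Acly, Acaca and Fads1 had lower means than Srebf1 in each group. Transcripts of the mitochondrial genome made up 14.9% ± 5.12, 21.4% ± 5.43 and 16.8% ± 3.52 in the same order, and leaving them out changed no call of the 6 genes. The libraries also differed in how counts depended on gene length: the Spearman correlation across 13325 genes between exon length and a library's deviation from the mean ran from -0.39 to 0.43. The labelled tissue was not checked against adipocyte markers, since no identifiers could be paired with names. In bulk tissue, fewer cells that express a gene and less of its RNA per cell cannot be told apart. Nothing in the labels says more of the 6 rats of a group than that they are separate samples, so p-values measure the spread between these samples. Per the study's methods, rats shared cages. Which rats shared a cage is not given, so the samples of a group may not be independent.

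**Figure D1:**
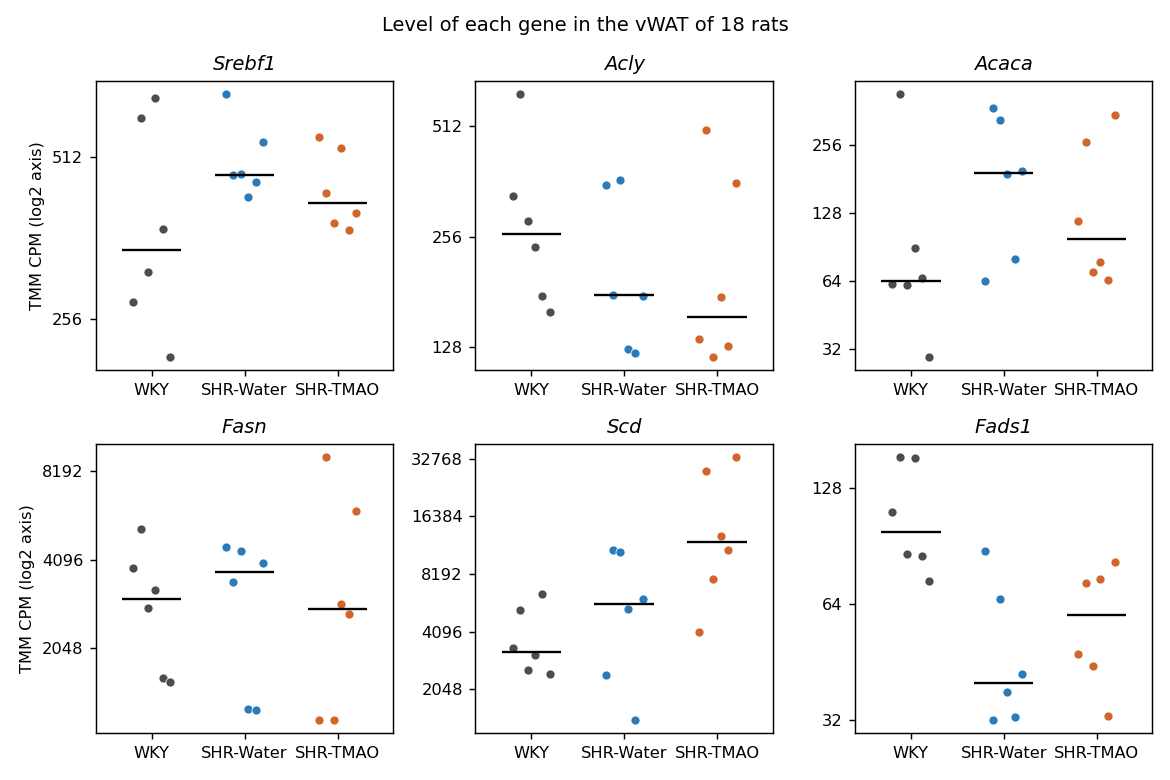
Level of each gene in each of the 18 rats, in TMM CPM on a log2 axis, with WKY in gray, SHR-Water in blue and SHR-TMAO in orange and the group median as a black line. The 6 SHR-TMAO rats lie between 4069 and 33543 CPM for Scd, against 2471 to 6474 in WKY, while 5 of 6 SHR-Water rats lie below every WKY rat for Fads1.

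Per exon length, Scd was the most abundant of the 6 genes in each group and Fasn came next. Levels between genes are given as FPKM, which is the TMM CPM per kilobase of exon. In WKY, the mean FPKM was 867 ± 365 for Scd, 334 ± 152 for Fasn, 91.9 ± 41.2 for Srebf1, 69.8 ± 39.3 for Acly, 32.4 ± 10.4 for Fads1 and 18.1 ± 22.3 for Acaca (SD, n = 6). In every one of the 18 rats Scd exceeded Fasn and Fasn exceeded Srebf1, although the ranges of Scd and Fasn over the rats of a group overlapped in all 3 groups. Those of Fasn and Srebf1 overlapped in SHR-Water. Among the 4 lower genes, most neighbours in the order overlapped, and the exception was Srebf1 over Acly in SHR-Water, where all 6 rats had more Srebf1. With plain library totals in place of the TMM-corrected ones, that pair overlapped as well.

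Acaca and Fads1 were the lowest of the 6 genes, and their order by mean FPKM differed between WKY and SHR-Water. In WKY, Fads1 exceeded Acaca in 5 of 6 rats, whereas in SHR-Water Acaca (30.2 ± 18.6 FPKM) exceeded Fads1 (14.6 ± 6.58 FPKM) in 5 of 6 rats. In SHR-TMAO, Acaca had 23.0 ± 17.5 and Fads1 17.3 ± 5.85 FPKM (SD, n = 6 each), and Acaca was the higher in 3 of 6 rats, so that these neighbours did not differ beyond their spread. The log2 ratio of Acaca to Fads1 was above that in WKY by 2.26 in SHR-Water and by 1.55 in SHR-TMAO, and neither difference passed the exact permutation test (adjusted p = 0.0649 and 0.0708). In SHR-TMAO the mean FPKM of Scd was 3630 ± 2645, that of Fasn 420 ± 343, that of Srebf1 101 ± 17.5 and that of Acly 54.5 ± 36.2.

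Srebf1, the regulator, had the lowest SD of log2 CPM of the 6 genes in SHR-Water (0.231) and in SHR-TMAO (0.243). In WKY its SD was 0.638, above that of Fads1 (0.456) and Scd (0.568). The Srebf1 gene spans chr10:46570996-46593009 on the minus strand of Rnor_6.0, the build of the count table, with 4435 bases of exon. On the opposite strand 1 other gene overlaps it. Reads were counted with a strand option, and whether the libraries kept the strand was not tested. Its CPM was 217 in the lowest, 344 in the median and 661 in the highest WKY rat. In SHR-Water the lowest, median and highest values were 431, 475 and 670 CPM, and in SHR-TMAO they were 374, 421 and 557 CPM. The 3 groups overlapped, and 4 of 6 WKY rats lay below every SHR-Water rat. The log2 fold change was 0.31 (SE 0.256) for SHR-Water against WKY and -0.16 (SE 0.146) for SHR-TMAO against SHR-Water, with edgeR adjusted p = 0.460 and 0.518. The 95% interval of the log2 change with TMAO within SHRs, -0.47 to 0.16, was the narrowest of the 6 genes in that comparison. By limma, SHR-Water was above WKY with a log2 change of 0.63 and adjusted p = 0.0291, where limma called 4697 of the 13017 genes tested.

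Acly, which supplies the acetyl-CoA, had no fold change that passed the test across all genes in any comparison. It spans chr10:88392248-88442845 on the minus strand. Its CPM ran from 160 to 624 in WKY with a median of 261, from 124 to 365 in SHR-Water with a median of 177, and from 121 to 499 in SHR-TMAO with a median of 155. The groups overlapped, and the highest WKY value was that of WKY replicate 2. For SHR-Water against WKY the log2 fold change was -0.46 (SE 0.361, edgeR adjusted p = 0.424), and for SHR-TMAO against SHR-Water it was 0.13 (SE 0.402, edgeR adjusted p = 0.864). The 95% interval of the latter was -0.73 to 0.99.

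Acaca, the committed step, varied widely between rats of a group, with an SD of log2 CPM of 1.29 in WKY and of 1.04 in each of the SHR groups. It was the most variable of the 6 genes in WKY, while Scd in SHR-Water (1.18) and Fasn and Scd in SHR-TMAO (1.21 and 1.14) varied more. It spans chr10:71536533-71719910 on the plus strand and has 6796 bases of exon. Its CPM was 29.4 in the lowest, 63.9 in the median and 429 in the highest WKY rat, and the next highest WKY rat had 89.2 CPM. The corresponding values were 63.8, 193 and 373 CPM in SHR-Water and 64.6, 97.6 and 347 CPM in SHR-TMAO. The groups overlapped. WKY replicate 2 was the highest of all 18 rats, while 3 of 6 WKY rats lay below every SHR-Water rat. The log2 fold change of SHR-Water against WKY was 0.73 (SE 0.605, edgeR adjusted p = 0.456), with a 95% interval of -0.57 to 2.03.

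That value rested on 1 rat. Without WKY replicate 2, Acaca was higher in SHR-Water by 1.75 on the log2 scale and edgeR's adjusted p was 0.0193. That fit called 2504 of the 13138 genes tested. limma with sample quality weights, which gives rats that stand apart less weight, gave a log2 change of 1.91 with adjusted p = 0.00682. Within SHRs the log2 change of Acaca with TMAO was -0.35 (SE 0.501, edgeR adjusted p = 0.681). Acaca was also compared with the gene length trend of the library, and the relation did not pass after adjustment. Over the 18 rats this relation had Pearson's r = 0.581 (permutation p = 0.0123, adjusted over the 6 genes 0.0739) and Spearman's rho = 0.474 (permutation p = 0.0494), and r was 0.491 without the 2 rats farthest from the median trend. Within WKY, SHR-Water and SHR-TMAO the r was 0.542, 0.810 and 0.335 (exact permutation p = 0.308, 0.0819 and 0.542, n = 6 each, adjusted p = 0.841, 0.731 and 0.841). Spearman's rho within these groups was 0.0286, 0.714 and 0.486. With the trend as an offset in edgeR, the change with TMAO within SHRs was 0.00, and its part in the values of Acaca was not otherwise tested.

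Fasn, which completes palmitate, had nearly the same mean level in the WKY and SHR-Water groups. It spans chr10:109987735-110005901 on the minus strand and has 9139 bases of exon. Its CPM was 1573 in the lowest, 3021 in the median and 5206 in the highest WKY rat, and 1266, 3727 and 4517 in SHR-Water. In SHR-TMAO the values were 1173, 2787 and 9138 CPM. The SHR-TMAO rats enclosed the range of the other groups, with 2 rats above and 2 rats below every WKY and every SHR-Water rat. The log2 fold change was 0.03 (SE 0.380) for SHR-Water against WKY and 0.32 (SE 0.508) for SHR-TMAO against SHR-Water, with edgeR adjusted p = 0.964 and 0.716. The 95% intervals of these log2 changes were -0.78 to 0.85 and -0.77 to 1.41, and both included 0.

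Scd, the stearoyl-CoA desaturase, was higher in SHR-TMAO than in WKY by a log2 fold change of 2.06 (SE 0.462), or 4.17-fold, and had an intermediate mean in SHR-Water. It spans chr1:264160129-264172729 on the minus strand with 4475 bases of exon. The reference places the paralogs Scd2 and Scd4 beside it, and how reads shared with a paralog were counted is not given in the sources used here, so its level carries that uncertainty. The CPM of Scd was 2471 in the lowest, 3229 in the median and 6474 in the highest WKY rat. In SHR-Water these were 1421, 5717 and 10939 CPM, and in SHR-TMAO they were 4069, 11980 and 33543 CPM. Of the 6 SHR-TMAO rats, 5 lay above every WKY rat and 3 above every SHR-Water rat, and 2 of the 6 SHR-Water rats lay below every WKY rat. The highest SHR-TMAO rat had 8.24 times the CPM of the lowest.

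The difference of Scd between SHR-TMAO and WKY passed the test across all genes (edgeR adjusted p = 0.0148, 95% interval of the log2 change 1.07 to 3.05). It was called in 12 of 12 fits that left out 1 rat, with adjusted p between 0.00484 and 0.0384 and log2 changes between 1.72 and 2.29. DESeq2 gave adjusted p = 3.7e-05 and limma 0.00216. For SHR-TMAO against SHR-Water, the log2 change was 1.44 (SE 0.553, 95% interval 0.26 to 2.63), with unadjusted p = 0.0204 and adjusted p = 0.143 in edgeR. DESeq2 gave an adjusted p of 0.0828 and limma one of 0.0694. Without SHR-TMAO replicate 1, the SHR-TMAO rat with the least Scd, DESeq2 gave a log2 change of 1.64 and adjusted p = 0.00757. That fit called 2698 of the 14238 genes tested. The DESeq2 fits without 1 rat were added after seeing the data, and the others gave Scd adjusted p between 0.0838 and 0.235. The 12 edgeR fits without 1 rat gave adjusted p between 0.0572 and 0.253. SHR-Water exceeded WKY by 0.63 (SE 0.441, edgeR adjusted p = 0.374), and the 95% interval of this log2 change was -0.31 to 1.58. These 2 steps share the SHR-Water rats and are not independent of the comparison of SHR-TMAO with WKY.

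Fads1, the delta-5 desaturase, fell in SHRs. It spans chr1:226234074-226249138 on the plus strand with 3416 bases of exon. Its CPM was 73.6 in the lowest, 98.6 in the median and 154 in the highest WKY rat. In SHR-Water the values were 32.1, 39.9 and 87.9 CPM, and in SHR-TMAO 32.8, 60.0 and 82.3 CPM. Of the SHR-Water rats 5 lay below every WKY rat, and of the SHR-TMAO rats 4 did so, while 5 of 6 WKY rats lay above every SHR-TMAO rat.

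The level of Fads1 was 2.25-fold lower in SHR-Water than in WKY, a log2 fold change of -1.17 (SE 0.282, 95% interval -1.78 to -0.56, edgeR adjusted p = 0.0248). In SHR-TMAO it was 1.89-fold lower than in WKY, a log2 fold change of -0.91 (SE 0.248, 95% interval -1.45 to -0.38, edgeR adjusted p = 0.0383). Both calls stood by DESeq2 (adjusted p = 0.00216 and 0.00872) and by limma (adjusted p = 0.00539 and 0.0407). The edgeR call of SHR-Water against WKY was lost in 5 of 12 fits without 1 rat, those without WKY replicate 4 (adjusted p = 0.0543) and without SHR-Water replicates 2, 4, 5 and 6 (0.0623, 0.0688, 0.0592 and 0.0578). The edgeR call of SHR-TMAO against WKY was lost in 7 of 12, those without WKY replicates 1 to 4 (adjusted p = 0.0696, 0.0567, 0.0501 and 0.0567) and without SHR-TMAO replicates 1, 3 and 5 (0.0613, 0.0860 and 0.0705). The sign stayed in each of these fits. With DESeq2, Fads1 was called in 12 of 12 such fits in each of these comparisons. Within SHRs, the log2 change of Fads1 with TMAO was 0.27 (SE 0.287, 95% interval -0.34 to 0.89, edgeR adjusted p = 0.569).

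The promoter sequences of the 2 genes that passed a test are shown, since Scd and Fads1 differed in direction, and so that their base composition can be compared. Both are RefSeq sequences of the build GRCr8, 250 bases before to 50 after the start of the gene, written 5′ to 3′ on the strand of the gene. Promoters of 4 of the 6 genes matched by symbol, with 2 for Srebf1, and Fasn and Acaca were not matched. Capitals mark matches to any of 5 motifs, searched on both strands with overlaps allowed: CCAAT (the CCAAT box), GGGCGG (the GC box), TATAAA (the TATA box), TCACNCCA (the core of the sterol regulatory element) and CACGTG (an E-box). The Scd promoter is chr1:253231682-253231981 on the minus strand and the Fads1 promoter is chr1:216252442-216252741 on the plus strand.
Scd: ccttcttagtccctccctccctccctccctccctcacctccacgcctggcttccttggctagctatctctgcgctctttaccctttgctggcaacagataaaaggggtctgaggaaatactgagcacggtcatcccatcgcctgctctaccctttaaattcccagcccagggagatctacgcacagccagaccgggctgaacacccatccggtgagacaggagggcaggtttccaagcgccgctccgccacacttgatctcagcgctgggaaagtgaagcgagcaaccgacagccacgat
Fads1: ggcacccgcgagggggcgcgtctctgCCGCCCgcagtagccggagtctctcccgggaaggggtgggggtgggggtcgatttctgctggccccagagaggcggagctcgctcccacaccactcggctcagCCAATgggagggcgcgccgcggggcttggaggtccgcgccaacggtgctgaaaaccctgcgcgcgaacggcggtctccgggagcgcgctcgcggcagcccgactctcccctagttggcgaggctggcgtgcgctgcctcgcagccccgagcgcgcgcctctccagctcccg
The window of Scd held none of these letters and 58.3% G and C. That of Fads1 held 74.3% G and C, with a GC box that starts at -224 and a CCAAT box at -121, where 0 is the first base of the gene. The promoter of Acly held 3 GC boxes and a CCAAT box, and the 2 promoters of Srebf1 held 4 and 5 matches to the same 2 motifs. Of all 33469 promoters of this length, 37.5% held a CCAAT box, 33.1% a GC box, 14.2% a TATA box, 3.89% the sterol regulatory core and 6.42% the E-box. A match is a run of letters and not a site known to be used.

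**Figure D2:**
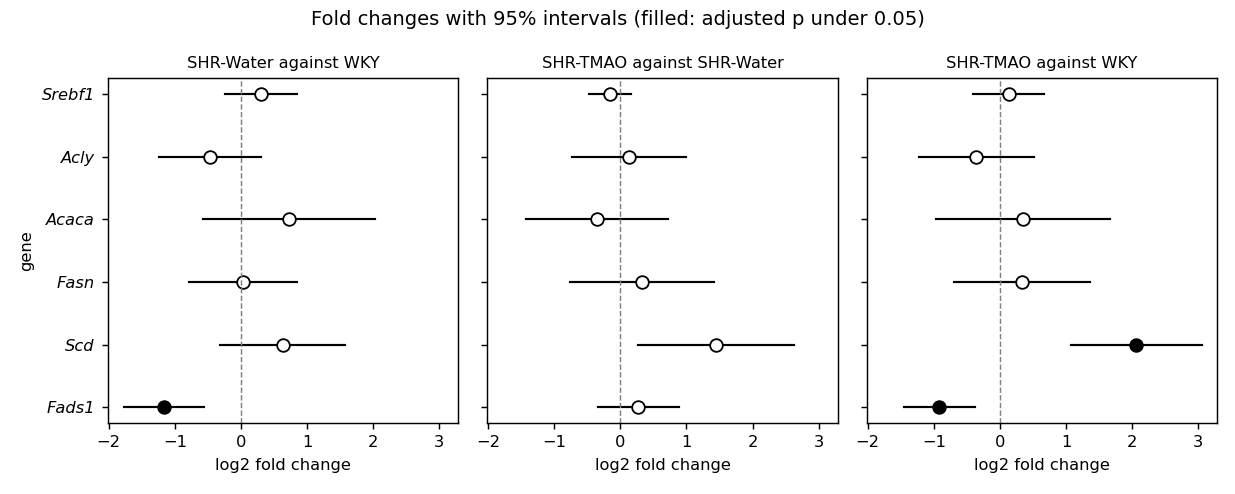
Log2 fold change of each gene (x axis) in the 3 comparisons, with its 95% interval as a bar and filled points where edgeR's adjusted p was under 0.05. Fads1 lies at -1.17 and -0.91 against WKY, and Scd at 2.06 in SHR-TMAO against WKY and at 1.44 against SHR-Water, where it did not pass.

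Taking the comparisons as a whole, edgeR called 2 of the 6 genes in any comparison, Scd and Fads1. By limma, Srebf1 and Acaca were called too in SHR-Water against WKY (adjusted p = 0.0291 and 0.00682), and edgeR called Acaca there without WKY replicate 2 (adjusted p = 0.0193). These stand beside 4697 of the 13017 genes tested that limma called there. Without WKY replicate 2, edgeR called 2504 of 13138 genes. With 6 genes, 1 call is the smallest share above 0. In SHR-Water against WKY, 0 of 6 genes were called higher, beside 2.31% of the 13017 genes tested, and 1 of 6, Fads1, was called lower, beside 3.82%. In SHR-TMAO against WKY, 1 of 6 was called higher, Scd, beside 3.50% of 12833 genes, and 1 of 6 lower, Fads1, beside 4.25%. No gene of the 6 had groups without overlap in any comparison, beside 4.14% of genes in SHR-Water against WKY, 1.24% in SHR-TMAO against SHR-Water and 4.04% in SHR-TMAO against WKY.

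In SHR-TMAO against SHR-Water edgeR called 0 of the 6 genes, beside 0.00% of the 12852 genes tested. With no adjustment, 3212 genes, or 25.0%, had p under 0.05 in edgeR, and so had 1 of the 6, Scd. The lowest adjusted p over all genes was 0.0834. DESeq2 called 1187 genes and limma 4103 in this comparison, and none of the 6 was among them. The number was also set by single rats, since edgeR called 1863 genes without SHR-Water replicate 1 and 1508 without SHR-TMAO replicate 1, and none of the 6 in either.

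The median log2 change of the 6 genes came to 0.17 for SHR-Water against WKY, 0.20 for SHR-TMAO against SHR-Water and 0.23 for SHR-TMAO against WKY. Over all genes tested it was -0.00, -0.01 and -0.02. In each comparison 4 of the 6 fold changes were above 0 and 2 below. The fold changes of Acly, Acaca and Fasn, the genes that lead from citrate to palmitate, passed edgeR's test with all rats in none of the 3 comparisons.

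With the 3 groups pooled, all 6 genes varied more between rats of a group than the median gene did. The SD of log2 CPM between rats of a group was 1.13 for Acaca, 1.00 for Scd, 0.948 for Fasn, 0.758 for Acly, 0.523 for Fads1 and 0.415 for Srebf1. The median over 13325 genes was 0.365. The SD of Acaca was above that of 98.7% of genes, that of Scd above 98.1% and that of Fasn above 97.6%. That of Srebf1 was above 60.0%. The SE of the log2 fold changes of the 6 genes lay between 0.256 and 0.605 in SHR-Water against WKY, where the median SE of all genes was 0.229. In SHR-TMAO against WKY the range was 0.248 to 0.613, beside a median of 0.212. In SHR-TMAO against SHR-Water it was 0.146 to 0.553, beside a median of 0.208, and the SE of Srebf1 was the lowest and below that median.

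**Figure D3:**
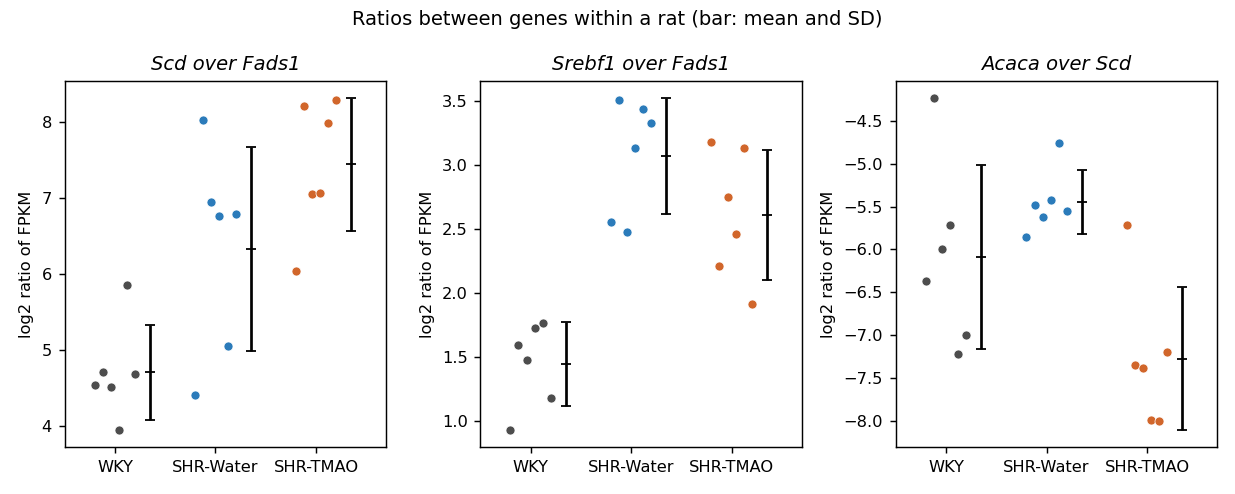
Log2 ratio of the FPKM of 2 genes within each rat, with points for rats and a bar for the mean and SD of a group (n = 6). Scd over Fads1 lies between 3.94 and 5.86 in WKY and between 6.04 and 8.28 in SHR-TMAO, and Acaca over Scd is lower in SHR-TMAO than in SHR-Water.

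Ratios between 2 genes within a rat do not depend on how the library total is corrected. Of 45 ratio comparisons, 15 pairs in 3 comparisons, 7 passed a two-sided exact permutation test with Benjamini-Hochberg adjustment over the 45. Each of the 7 held Scd or Fads1, as did 27 of the 45 comparisons by construction. The smallest p that 6 against 6 rats can give is 0.00216. The pairs share genes and rats, so that the 7 are not independent of each other or of the fold changes above.

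Relative to Fads1, Srebf1 stood higher in both SHR groups than in WKY, and Scd did so in SHR-TMAO. The log2 ratio of Srebf1 to Fads1 was 1.45 ± 0.328 in WKY. It was 3.07 ± 0.452 in SHR-Water rats and 2.61 ± 0.505 in those given TMAO (SD, n = 6 each). The differences from WKY were 1.63 and 1.16, the groups did not overlap, and each had exact permutation p = 0.00216 and adjusted p = 0.0325. The log2 ratio of Scd to Fads1 was 4.71 ± 0.628 in WKY and 7.44 ± 0.878 in SHR-TMAO, a difference of 2.73 in which the groups did not overlap (exact permutation p = 0.00216, adjusted p = 0.0325). SHR-Water lay between them at 6.33 ± 1.34, and its difference from WKY, 1.62, had adjusted p = 0.0779 in the exact permutation test. The ratio of Fasn to Fads1 was higher in SHR-Water than in WKY by 1.19 (exact permutation adjusted p = 0.0417), a call that was lost without WKY replicate 1, 3, 4, 5 or 6 (adjusted p = 0.0696, 0.0758, 0.0866, 0.0779 and 0.0866).

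Of the 6 ratios of Acaca, Acly and Fasn to Scd that compare SHR-TMAO with another group, 3 passed. The log2 ratio of Acaca to Scd averaged -5.45 ± 0.372 on water and -7.27 ± 0.837 on TMAO among the SHRs (SD, n = 6 each), a difference of -1.83 (exact permutation p = 0.00433, adjusted p = 0.0390). The SHR-TMAO rats ranged from -8.01 to -5.72 and the SHR-Water rats from -5.86 to -4.75, so that the groups overlapped only at their ends. It was the 1 ratio of 15 that passed between the SHR groups, and it was called in each fit without 1 rat. In WKY this ratio was -6.09 ± 1.08, and its difference from SHR-TMAO did not pass (exact permutation adjusted p = 0.133). The ratio of Acly to Scd was lower in SHR-TMAO than in WKY by a log2 difference of -2.24 (exact permutation adjusted p = 0.0390). The ratio of Fasn to Scd differed by -1.76 (exact permutation adjusted p = 0.0417), a call lost without SHR-TMAO replicate 3, 4, 5 or 6 (adjusted p = 0.0557 each). Between the SHR groups, the ratios of Acly and of Fasn to Scd differed by -1.38 and -1.32, and neither passed (exact permutation adjusted p = 0.0779 and 0.0682).

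**Figure D4:**
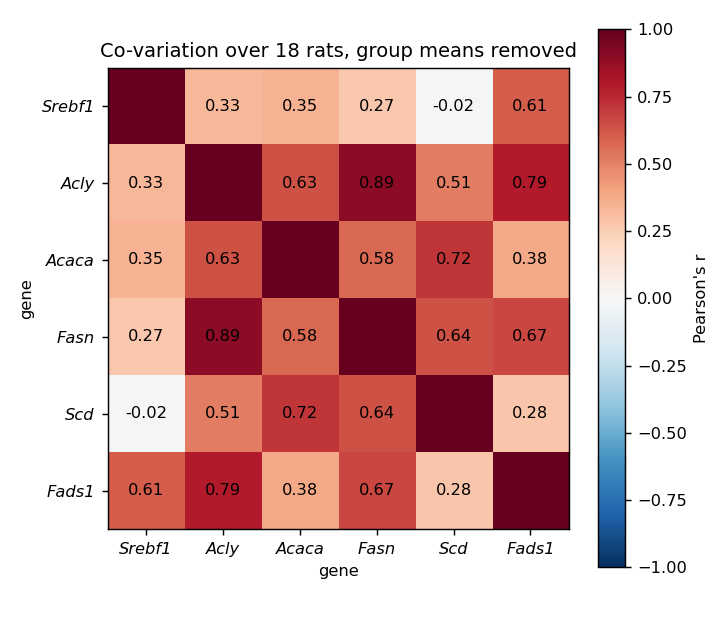
Pearson's r between the log2(FPKM + 1) values of each pair of genes over 18 rats after the mean of each group was removed, on a color scale from -1 to 1. The highest is 0.89 for Acly with Fasn and the lowest is -0.02 for Srebf1 with Scd.

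With group means removed, the r over 18 rats lay between 0.28 and 0.89 for the 10 pairs of enzymes and between -0.02 and 0.61 for the 5 pairs of Srebf1 with an enzyme, so that the ranges overlapped. It was 0.89 between Acly and Fasn, 0.79 between Acly and Fads1, 0.72 between Acaca and Scd and 0.67 between Fasn and Fads1, against 0.28 between Scd and Fads1, 0.38 between Acaca and Fads1 and 0.61 between Srebf1 and Fads1. The median over the 15 pairs was 0.58. These values are a description, since the genes share libraries and their totals. SHR-TMAO replicate 2 and SHR-TMAO replicate 6 were the highest SHR-TMAO rats for Acly (499 and 358 CPM), Acaca (262 and 347 CPM), Fasn (9138 and 5998 CPM) and Scd (28156 and 33543 CPM), and not for Srebf1 (438 and 403 CPM). WKY replicate 2 was likewise the highest WKY rat for Acly, Acaca, Fasn and Fads1.

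With group means left in, the RNA of the regulator and that of its enzymes were not related over the 18 rats in a way that passed the test. Pearson's r with Srebf1 was 0.180 for Acly, 0.451 for Acaca, 0.242 for Fasn, 0.0655 for Scd and 0.0805 for Fads1. The permutation p was lowest for Acaca (p = 0.0602, adjusted over the 5 relations 0.301, Spearman's rho 0.521 with permutation p = 0.0281), and its r was 0.177 without the 2 rats farthest from the median of Srebf1. Leaving out those rats also narrows the range of Srebf1, so the lower r cannot tell how far the relation rested on them. For Acly, Fasn, Scd and Fads1 the rho was 0.265, 0.309, -0.0630 and 0.127, with permutation p of 0.287, 0.211, 0.805 and 0.615. Their r without those rats was 0.249, 0.229, -0.258 and 0.348, and their Pearson permutation p was 0.477, 0.338, 0.799 and 0.751, with adjusted p of at least 0.795. With group means removed, Fads1 had r = 0.606 with Srebf1 (permutation within groups, adjusted p = 0.0248). Within WKY, SHR-Water and SHR-TMAO alone its r was 0.872, 0.734 and 0.310, and none of the 15 relations within groups passed the adjusted exact permutation test, for which the lowest adjusted p was 0.307.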

How the data were processed

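vWAT of 18 rats was profiled by RNA-seq in 3 groups of 6. The authors trimmed reads with cutadapt 2.5, aligned them with HISAT2 2.1.0 and counted them per gene with featureCounts 1.6.3 on the reverse strand (option 2), using the Ensembl release 96 annotation of Rnor_6.0, per the labels' processing notes and the file header; the methods name GENCODE. The deposited table holds raw counts per gene, with no normalization or filter. Everything else was computed from them, and every column of the table was used.

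edgeR 4.0.16 in R 4.3.3 (TMM, filterByExpr, quasi-likelihood test, Benjamini-Hochberg adjustment over all genes tested) was fitted on the 2 groups compared. A gene was called at adjusted p under 0.05, without the fold limit of the methods, an absolute log2 change of 1, which was an alternative. The SE is the log2 change over the square root of F, and 95% intervals use the t quantile at the fit's degrees of freedom. Alternatives were DESeq2 1.42.0, limma 3.58.1 (voom with quality weights), other normalization and filters, all 18 rats in 1 fit, a replicate block, a gene length offset, leaving out mitochondrial genes and leaving out each rat. DESeq2 with each rat left out was added after seeing the data. FPKM, ratios, correlations (pseudocount 1) and permutations (all 924 splits for 6 against 6 rats, otherwise 100000 draws) were computed in Python 3.11.15 with scipy 1.17.1. All tests were two-sided.

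On simulated data, edgeR recovered 43% of genes changed 2-fold and 84% of those changed 4-fold in SHR-Water against WKY (12850 genes, 7 false calls). The shares were 58% and 90% in SHR-TMAO against SHR-Water (12713 genes, 12 false calls). In SHR-TMAO against WKY they were 53% and 94% (12702 genes, 6 false calls). Neither recovery nor false calls were tested at the spread of the 6 genes. With the 3 groups pooled, all 6 varied more between rats of a group than the median gene did. The pooled SD of Srebf1 rested on WKY. The genes and lists were chosen with earlier results of these data known, although the rule for the genes uses identifiers and chromosomes only. All 6 genes are named. Other genes of the pathway and cell type markers, listed by symbol, were not analysed here, because the reference paired 0 identifiers with names. The genes most like the 6 were chosen by Pearson's r with their mean z-score.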

Additional observations from a re-analysis of the deposited data

Results flagged for a closer look

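In 18 groups of 6 rats (6 genes in 3 groups), the highest or lowest rat stood far from the other 5 in 2. The distance was taken on CPM and not on log2 CPM. In normally distributed values, chance gives such a distance in about 1 of 20 groups, and the distribution here was not tested. Acly in WKY replicate 2 was at 624 CPM, with the nearest WKY rat at 331. Acaca in WKY replicate 2 was at 429 CPM, with the nearest at 89.2. Both are the same library, whose gene length trend was 0.25, the highest of the WKY rats (range -0.39 to 0.25). Its part in these levels was not tested.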

How the results depend on the processing

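Scd in SHR-TMAO against WKY was called under all 20 alternatives that gave it a test, and in the 12 DESeq2 fits without 1 rat. Fads1 was called against WKY under all 8 that kept every rat, and lost the call in the fits without 1 rat given above. With the fold limit, 1 of the 6 genes was called in SHR-TMAO against WKY, since Fads1 did not reach it. limma called 3 of the 6 in SHR-Water against WKY, beside 4697 of the 13017 genes tested. Leaving out 1 rat, in edgeR or DESeq2, gave 0 to 2 genes of the 6 in SHR-Water against WKY, 0 to 1 in SHR-TMAO against SHR-Water, 1 to 2 in SHR-TMAO against WKY and 6 to 12 ratios, with the 12 without WKY replicate 2. The log2 change of Fasn in SHR-Water against WKY was -0.16 with the gene length offset and ran from -0.11 to 0.28 without 1 rat. That of Acaca in SHR-TMAO against SHR-Water was 0.0015 with the offset. Without 1 rat, the changes in SHR-TMAO against SHR-Water ran from -0.24 to 0.33 for Acly and from -0.15 to 0.51 for Fasn, and in SHR-TMAO against WKY from -0.042 to 1.34 for Acaca and from -0.13 to 0.55 for Fasn. With group means removed, the r with Srebf1 was -0.0178 for Scd and 0.606 for Fads1. The ratio of Fasn to Fads1 lost its call with a pseudocount of 1 (adjusted p = 0.0696, exact permutation test). The order of the 6 genes by level was the same with plain library totals. The causes of these changes were not tested.

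The rats of different groups share replicate numbers but no stated pairing. Same-numbered rats deviated together with r from -0.30 to 0.55 in SHR-Water against WKY (over 0.1 in 5 of 6 pairs, best with their own number in 2 of 6), from -0.39 to 0.01 in SHR-TMAO against SHR-Water (0 of 6, 0 of 6) and from -0.23 to 0.29 in SHR-TMAO against WKY (1 of 6, 2 of 6), so the numbers were not taken as pairs. With a replicate block, 1, 0 and 2 of the 6 genes were called, Fasn in SHR-Water against WKY had a log2 change of -0.034, and Scd in SHR-TMAO against WKY had 1.79 with edgeR's adjusted p = 0.0462. Over all genes the block gave 1070, 0 and 647 calls.

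Counts of genes called over all genes also moved with the processing. In SHR-Water against WKY edgeR called 798 genes, 445 with the fold limit, 2504 without WKY replicate 2, 1454 without SHR-Water replicate 1 and 520 without SHR-Water replicate 4, DESeq2 called 1635 and limma 4697. In SHR-TMAO against WKY edgeR called 995 genes, 464 with the fold limit, 647 without WKY replicate 6, 644 without WKY replicate 1, 661 without WKY replicate 3, 658 without SHR-TMAO replicate 6 and 1563 without WKY replicate 4, DESeq2 called 1708 and limma 2566. In SHR-TMAO against SHR-Water, DESeq2 without 1 rat called between 242 and 3012 genes. Depth did not limit the 6 genes, whose counts were at least 460.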

Other observations

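Of 13319 other genes, 2 whose level over the 18 rats was most like the mean z-score of the 6 genes are given by identifier, since no names could be paired. ENSRNOG00000006388 (chr6:92597706-92643847, Rnor_6.0) had Pearson's r = 0.86 over 18 rats, with 210 ± 83.4 CPM in WKY. Its CPM was 159 ± 32.3 for SHR-Water and 195 ± 89.1 for SHR-TMAO rats (SD over 6 rats). ENSRNOG00000019372 (chr1:219759183-219859848) had r = 0.82, with 916 ± 194, 881 ± 110 and 1070 ± 234 CPM. These are the highest of many correlations and are given as a description.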
